A study of Homo sapiens with 20 samples.

Results

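The microRNAs (miRNAs) described here are 6 mature strands cut from hairpins that lie in introns of lipid-metabolism genes: miR-33a-5p and miR-33a-3p from SREBF2, miR-33b-5p and miR-33b-3p from SREBF1, and miR-103a-3p and miR-107 from the PANK genes. They were picked by name and host gene and not by a rule on their measured values, though earlier results of these data were known. They are 6 of 2588 mature miRNAs counted in 20 small RNA libraries. DROSHA, the nuclease that frees miRNA hairpins from primary transcripts, was knocked out (KO) in HCT116 cells, a colon cancer line, and in HEK293E cells, an embryonic kidney line. HCT116 KO cells carried DROSHA-p140, a shorter form of the protein, in 3 libraries and full-length DROSHA in 3, and HEK293E KO cells carried p140 in 3 and full-length DROSHA in 3. Wild-type (WT) HCT116 cells, with their own DROSHA, were cultured for 72 hr in 0.1% fetal bovine serum (FBS), a serum starvation, in 3 libraries and in 9.1% FBS in 3. Single libraries came from HCT116 KO cells given GFP in place of DROSHA and from untreated WT HCT116 cells. All rescued cells thus lack endogenous DROSHA. The sources used here do not state how the rescue proteins were introduced, their levels, or whether each KO line is a single clone. The series is named for the part that a disordered, proline-rich region of DROSHA plays in making miRNAs that lie in introns.

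SREBF2 and SREBF1 encode SREBP-2 and SREBP-1, the transcription factors that switch on cholesterol and fatty acid synthesis. The miRNAs in their introns are known to repress ABCA1, the transporter that moves cholesterol out of cells, and genes of fatty acid oxidation. PANK1, PANK2 and PANK3 encode pantothenate kinases, which start the synthesis of coenzyme A from vitamin B5. The paralogous miRNAs miR-103 and miR-107 in their introns are known in mouse to reduce insulin sensitivity by repressing caveolin-1. A miRNA selects its targets mainly through its seed, the bases near its 5′ end.

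The mature sequences (RefSeq, GRCh38.p14) are shown because the near identity within each pair limits what reads can separate. Capitals mark the seed, bases 2 to 8 counted from the 5′ end.
miR-33a-5p: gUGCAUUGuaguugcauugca
miR-33b-5p: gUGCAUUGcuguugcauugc
miR-33a-3p: cAAUGUUUccacagugcaucac
miR-33b-3p: cAGUGCCUcggcagugcagccc
miR-103a-3p: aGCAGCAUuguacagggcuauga
miR-107: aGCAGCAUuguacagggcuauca
The 5p strands of miR-33a and miR-33b have the same seed and differ at 2 of the 20 positions they share (U9C and A10U, miR-33a-5p base first). Their 3p strands differ at 7 of 22 positions, 3 of them in the seed (A3G, U6C and U7C), so that the 3p seeds are distinct. The mature strands miR-103a-3p and miR-107 differ at 1 of 23 positions (G22C). A read that ends before that base cannot be told to be one or the other, and the sources used here do not state how such reads were counted, so the level of each may hold reads of its paralog. Among 2370 mature miRNAs in the sequence table, the seed UGCAUUG occurred only in miR-33a-5p and miR-33b-5p, and GCAGCAU only in miR-103a-3p and miR-107. The seed of miR-33b-3p also occurred in miR-515-3p and miR-519e-3p, which averaged 0.20 and 0.030 CPM (reads scaled to a fixed library total) over the 18 replicated libraries.

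The hairpins of the SREBF pair are shown to let their composition be compared, with both mature strands in capitals.
MIR33A: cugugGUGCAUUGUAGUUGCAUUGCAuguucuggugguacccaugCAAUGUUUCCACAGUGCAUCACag
MIR33B: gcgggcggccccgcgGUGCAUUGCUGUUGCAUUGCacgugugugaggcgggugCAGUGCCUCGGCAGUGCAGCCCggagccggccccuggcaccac
The MIR33A hairpin is 69 bases long with 47.8% G and C, and the MIR33B hairpin is 96 bases long with 72.9% G and C. On hg38 with GENCODE 29 gene models, MIR33A lies at chr22:41900944-41901012 on the plus strand, in intron 17 of 19 of transcript SREBF2-209. MIR33B lies at chr17:17813836-17813931 on the minus strand, in intron 17 of 19 of SREBF1-202. The SREBF2 intron is 2471 bases long, and the SREBF1 intron is 475 bases, with 66 bases between the hairpin and the downstream exon. These are the longest protein-coding transcripts that hold the hairpin in an intron, among 6 such transcripts of any type of SREBF2 and 7 of SREBF1. In them the paralogous hairpins sit in the intron of the same number, which is the longer one in SREBF2. The number may differ in the other transcripts.

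The PANK hairpins also share an intron number in transcripts chosen in the same way. MIR107 lies at chr10:89592747-89592827 on the minus strand in intron 5 of 6 of PANK1-201. MIR103A2 lies at chr20:3917494-3917571 on the plus strand in intron 5 of 6 of PANK2-206. MIR103A1 lies at chr5:168560896-168560973 on the minus strand in intron 5 of 6 of PANK3-201. In all 5 cases the hairpin has the strand of its host and touches an exon of the host in 0 annotated transcripts. The MIR103A1 and MIR103A2 hairpins give the same mature strand, and its counts under them totalled 227843 and 228659 reads over the 20 libraries. The level of miR-103a-3p can therefore not be divided between PANK3 and PANK2; the higher copy was used.

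Reads per library ranged from 38288 (KO with GFP) to 2822317, with 305603 to 327011 in HCT116 p140 and 764014 to 873717 in HCT116 full-length libraries. The HEK293E libraries held 135085 to 246008 reads with p140 and 224262 to 335803 with full-length DROSHA. A list of miRNAs made without DROSHA took 7.02% to 21.0% of reads in HCT116 p140 and 2.74% to 4.97% in HCT116 full-length libraries, and 15.5% to 20.0% in HEK293E p140 against 10.6% to 12.2% in HEK293E full-length libraries. Of the 5 colon and epithelial marker miRNAs, all were detected in each rescued and WT HCT116 group and in both HEK293E groups. In HCT116 they summed to 29106 to 34262 CPM with p140 and 23116 to 24713 CPM with full-length DROSHA. The WT sums were higher, at 68084 CPM untreated, 68174 to 72145 CPM in 9.1% FBS and 86730 to 92614 CPM in 0.1% FBS. HEK293E cells had 1919 to 3094 CPM. Neural markers summed to 37748 to 45242 CPM in HEK293E p140 and 68588 to 82776 CPM in HEK293E full-length libraries; kidney markers were not listed. In all 4 replicated HCT116 groups replicate 3 stood apart: the chi-square per degree of freedom was 3.57 to 8.29 between replicates 1 and 2, and 36.4 to 88.9 for pairs with replicate 3. The labels do not say whether replicates were separate cultures, so p-values measure the spread between these libraries, which may be technical.

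Loss of DROSHA was checked first. The mRNA of DROSHA is not measured by this assay, so its products were used. In the single KO library with GFP, miR-103a-3p had 68 reads of 38288, against 7778 of 856658 in the untreated WT library, which is 5.11-fold lower CPM (95% counting interval 4.03 to 6.59). For miR-107 the reads were 17 in KO with GFP and 1820 in WT, 4.78-fold lower (2.98 to 8.23). Other miRNAs were lower too: 181 of 194 with at least 100 reads in either library had lower CPM in the KO library, with a median of 6.07-fold.

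CPM are shares of a library, so they also depend on the other miRNAs. The list of DROSHA-independent miRNAs took 69.5% of reads in KO with GFP and 1.27% in WT. Per read of that list, miR-103a-3p was 281-fold and miR-107 263-fold lower in KO with GFP. The strand miR-33b-5p had 0 reads in KO with GFP and 171 in WT. With the KO library set to a floor of 3 reads, it was 2.55-fold lower in CPM and 140-fold lower per list read. These folds are not lower limits. The counting interval of its CPM ratio, KO with GFP to WT, reached 0.49, which is 2.05-fold lower. The other strands had 1 read each in KO with GFP, against 119 (miR-33a-5p), 27 (miR-33b-3p) and 23 (miR-33a-3p) in WT. The ratio of CPM in KO with GFP to WT was 0.19 for miR-33a-5p, with an interval of 0.0047 to 1.07, so at this depth a change of these strands was not detectable in CPM. Intervals and floors cover counting error only. With 1 library each there is no replicate check.

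In the replicated groups the PANK miRNAs were far more abundant than the SREBF ones. The mean of miR-103a-3p lay between 11324 CPM (9.1% FBS) and 17476 CPM (HEK293E p140), and it ranked between 9 and 21 among the mature miRNAs of each group. For miR-107 the group means ran between 1363 CPM (HCT116 p140) and 4129 CPM (0.1% FBS), ranks 45 to 78. These are levels in CPM of library totals, not corrected for composition.

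The order of groups for miR-103a-3p in CPM, with SD and n = 3 each, was HEK293E p140 (17476 ± 1818), HEK293E full-length (15999.9 ± 2840.5), HCT116 p140 (14408 ± 383), HCT116 full-length (13209 ± 517), 0.1% FBS (12711 ± 177) and 9.1% FBS (11324 ± 327). The untreated WT library followed at 9079 CPM and KO with GFP at 1776 CPM. Of neighbours in this order, HCT116 p140 did not overlap HCT116 full-length, and 0.1% FBS did not overlap 9.1% FBS. The other replicated neighbours overlapped. In CPM corrected for composition, 64.8% and 54.9% of all miRNAs tested did not overlap in these comparisons. On that scale miR-103a-3p overlapped between HCT116 p140 and HCT116 full-length.

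For miR-107 the order in CPM was 0.1% FBS (4129 ± 118), 9.1% FBS (2639 ± 199), HEK293E p140 (2604 ± 139), HEK293E full-length (2445 ± 497), untreated WT (2125), HCT116 full-length (1410 ± 128), HCT116 p140 (1363 ± 77.4) and KO with GFP (444.0). Only 0.1% and 9.1% FBS were replicated neighbours without overlap. In WT HCT116 cells miR-107 was thus above the means of both rescued HCT116 groups, by group mean or single library, while miR-103a-3p was below them. For miR-103a-3p the libraries in 0.1% FBS (12516 to 12863 CPM) overlapped those of HCT116 full-length (12659.5 to 13686 CPM). Neither difference was tested.

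Of the 4 SREBF strands, miR-33a-5p had the highest mean CPM in all 6 replicated groups. Its means were 693 ± 604 CPM in HCT116 p140, 437 ± 267 in HCT116 full-length, 723 ± 696 in HEK293E p140, 686 ± 307 in HEK293E full-length, 874 ± 560 in 0.1% FBS and 379 ± 230 in 9.1% FBS. Untreated WT cells had 139 CPM and KO with GFP 26.1 CPM. The SDs approach the means, and all replicated neighbours in the order overlapped.

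The mean of miR-33b-5p was 184 ± 136 CPM in HCT116 p140, 217 ± 123 in HCT116 full-length, 89.2 ± 70.2 in HEK293E p140, 98.7 ± 31.5 in HEK293E full-length, 433 ± 222 in 0.1% FBS and 286 ± 174 in 9.1% FBS. Untreated WT had 199.6 CPM. In every replicated HCT116 group the highest value of both 5p strands was in replicate 3, the library that stood apart, and in both HEK293E groups it was in replicate 1. Same-numbered libraries therefore deviated together in these strands.

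The 3p strands had fewer reads than their 5p partners in every replicated library except 9.1% FBS replicate 1, where miR-33b-3p had 323 reads and miR-33b-5p 273. Group means of miR-33a-3p ran between 55.9 ± 12.9 CPM (HCT116 full-length) and 119.8 ± 16.8 CPM (HEK293E full-length), with 14 to 340 reads in a replicated library. Those of miR-33b-3p ran between 26.3 ± 9.29 CPM (HEK293E p140) and 174 ± 16.9 CPM (9.1% FBS), with 4 to 341 reads. In 9.1% FBS miR-33b-3p stood above all other groups without overlap.

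**Figure D1:**
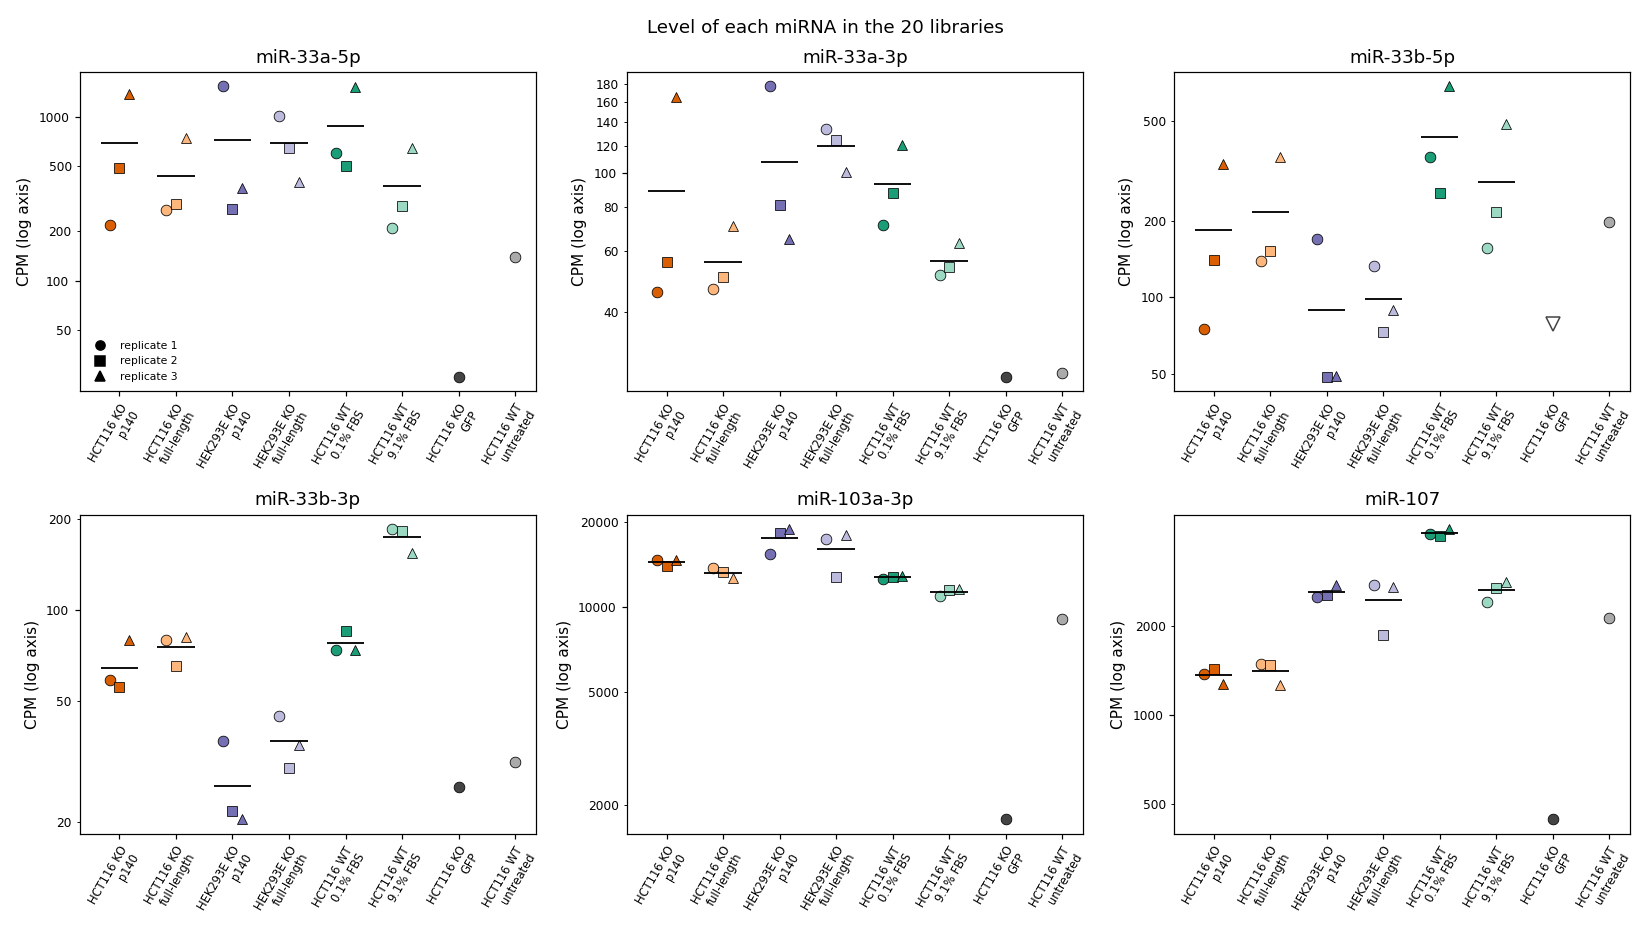
Level of each strand in all 20 libraries, in CPM on a log axis. Points are libraries, shapes are replicate numbers, and horizontal bars are means of 3. The open triangle is a library with 0 reads drawn at its 3-read floor. Both miR-33a-5p and miR-33b-5p were highest in replicate 3 of each replicated HCT116 group. Outside KO with GFP, miR-103a-3p ran between 9079 CPM (untreated WT) and 18808 CPM (HEK293E p140 replicate 3).

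The rescue comparison asks whether p140 makes these intronic miRNAs as full-length DROSHA does. In HCT116 KO cells 0 of the 6 strands changed, by edgeR's quasi-likelihood test with Benjamini-Hochberg adjustment at 0.05, where 59.6% of the 446 miRNAs tested were called (266; 127 higher and 139 lower). The count of the 6 was also 0 at an unadjusted p under 0.05, with DESeq2 and with a block for the replicate number (73.1% of all miRNAs called). The median log2 fold change of the 6 was -0.04, against -0.11 over all miRNAs tested.

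The most precisely measured strand was miR-103a-3p, with TMM-scaled CPM (CPM corrected for composition within a comparison) of 14772, 14256 and 13178 in HCT116 p140 libraries 1 to 3 and 13703, 13668 and 13588 in full-length libraries 1 to 3. These groups overlap. Its log2 fold change was 0.04 ± 0.10 (SE; 95% interval -0.19 to 0.28; adjusted p = 0.73, edgeR).

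Its paralog miR-107 had TMM-scaled CPM of 1393, 1459.7 and 1152 in HCT116 p140, against 1495, 1517 and 1356 in full-length libraries. The ranges overlapped, though each p140 library was below the full-length library of its number. It differed by -0.13 ± 0.15 log2 units (-0.48 to 0.23; adjusted p = 0.51, edgeR).

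For the SREBF2 product miR-33a-5p, TMM-scaled CPM were 220, 498 and 1237 in HCT116 p140 and 271, 303 and 799 in full-length libraries. Replicate 3 was highest in both, and replicate 1 alone was lower with p140. Its log2 fold change was 0.52 ± 0.64 (-0.97 to 2.00), an interval that spans 0.

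The SREBF1 product miR-33b-5p had 75.6, 144 and 303 TMM-scaled CPM in HCT116 p140, against 140.2, 157 and 385 in full-length libraries. It was lower with p140 in all 3 numbers, with log2 differences of -0.89, -0.13 and -0.34, and the groups overlapped. The log2 fold change was -0.37 ± 0.56 (-1.67 to 0.93; adjusted p = 0.59, edgeR), and with the replicate block -0.41 ± 0.20 (adjusted p = 0.082).

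The 3p strands followed their 5p partners in sign in HCT116. For miR-33a-3p the log2 fold change was 0.55 ± 0.47 and for miR-33b-3p -0.31 ± 0.26, neither passing edgeR's test (adjusted p = 0.34 for both).

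In HEK293E KO cells 0 of the 5 strands tested changed by the same edgeR test, where 26.4% of 416 miRNAs were called (110; 22 higher and 88 lower). The count was also 0 at an unadjusted p under 0.05, with DESeq2 and with the block, which raised the calls over all miRNAs to 183, 44% (70 higher and 113 lower). The sixth strand, miR-33b-3p, had 4 or 5 reads in each HEK293E p140 library and 7 to 12 in each full-length library, and did not pass the filter on low counts.

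In HEK293E cells miR-103a-3p had 15838, 19593 and 19056 TMM-scaled CPM with p140, against 17643, 12143 and 17462 with full-length DROSHA. The groups overlapped, and full-length replicate 2 was the lowest. Its log2 fold change was 0.21 ± 0.17 (-0.17 to 0.58), and that of miR-107 was 0.17 ± 0.19 (-0.25 to 0.58).

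The HEK293E values of miR-33a-5p were 1568, 296 and 375 TMM-scaled CPM with p140 and 1029.8, 614 and 392 with full-length DROSHA. Replicate 1 was the highest of both groups, and only there was p140 above full-length. The log2 fold changes were 0.12 ± 0.57 for miR-33a-5p, -0.13 ± 0.39 for miR-33a-3p and -0.16 ± 0.50 for miR-33b-5p, with intervals of about 1 log2 unit to either side.

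These folds are relative to the other miRNAs of a library. Scaled instead to the DROSHA-independent list, whose share of reads was higher with p140, the median over all miRNAs moved to -1.63 in HCT116. There the 6 strands lay between -0.74 and -1.87, with SEs of 0.60 to 1.13, and 0 were called. Of the 446 miRNAs tested in HCT116, 170 were called on that scale, 0 of them higher. In HEK293E the 5 strands lay between -0.51 and -0.86 on that scale, and miR-103a-3p was called lower at -0.51 (adjusted p = 0.0498, edgeR). Of the 416 miRNAs tested in HEK293E, 212 were called lower on that scale and 4 higher. The sign turned with this scale for miR-103a-3p and miR-33a-5p in both lines, miR-33a-3p in HCT116 and miR-107 in HEK293E. Whether the p140 effect differed between lines was tested as an interaction, HEK293E minus HCT116: 0 of 6 strands passed edgeR's test (0 at an unadjusted p under 0.05, 0 with DESeq2 and 0 with the block), where 3.3% of 515 miRNAs did (17, and 102 or 19.8% with the block within lines). The smallest SE among the 6 was that of miR-103a-3p, whose interaction was 0.11 ± 0.22 log2 units.

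**Figure D2:**
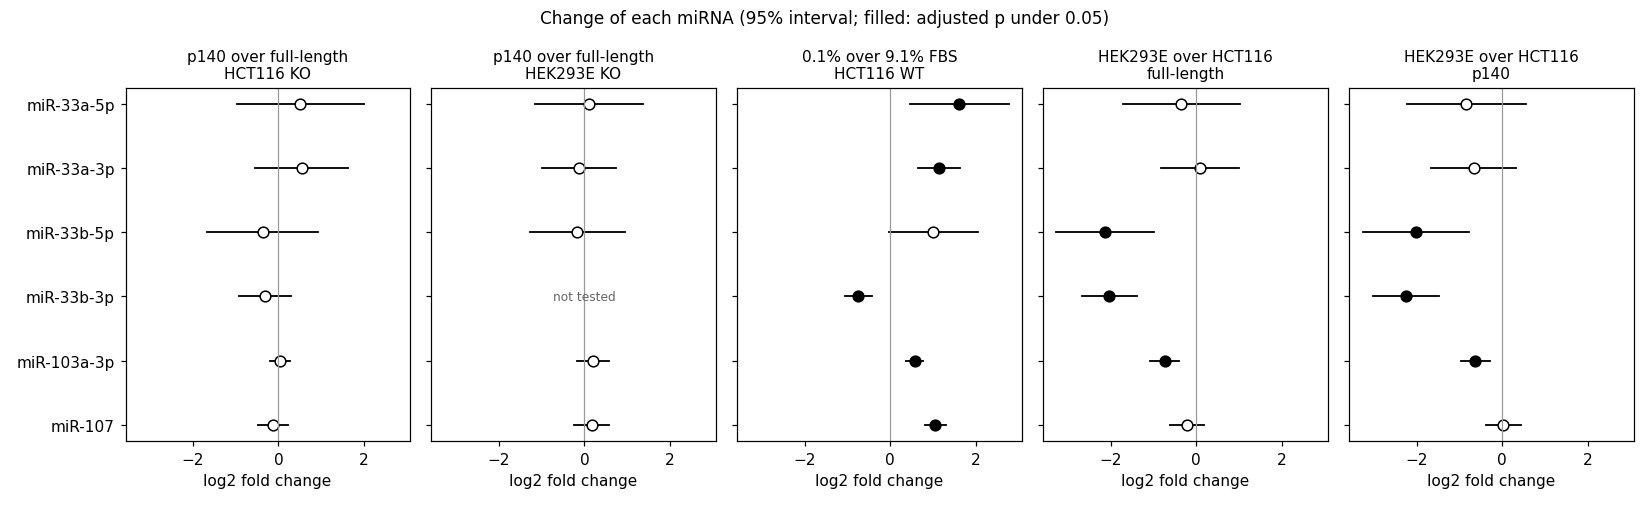
Log2 fold change of each strand in 5 comparisons by edgeR, with 95% intervals; filled points had an adjusted p under 0.05. No point is filled for p140 over full-length DROSHA in either line, and 5 of 6 are filled for 0.1% over 9.1% FBS. Both strands of miR-33b and miR-103a-3p lie to the left for HEK293E over HCT116 with TMM scaling. On library totals alone miR-103a-3p was at 0.28. There miR-33b-5p was not called, at -1.14 with p140 and -1.13 with full-length DROSHA. In HEK293E alone miR-33b-3p did not pass the filter on low counts.

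With TMM scaling most of the 6 strands were called changed under serum starvation, 4 higher and 1 lower. The count depended on the scale. On library totals alone it was 2 higher and 1 lower, where 73 of 577 miRNAs tested were called higher and 248 lower. On the scale of the DROSHA-independent list it was 0 higher and 1 lower, where 22 of the 577 were called higher and 242 lower. In WT HCT116 cells in 0.1% FBS, miR-107, miR-103a-3p, miR-33a-5p and miR-33a-3p rose and miR-33b-3p fell relative to 9.1% FBS by edgeR's test, where 45.8% of 577 miRNAs were called (264; 147 higher, 25.5%, and 117 lower, 20.3%). The median log2 fold change of the 6 was 1.03, against -0.03 over all miRNAs tested. Each strand moved in the same direction in all 3 replicate numbers, and the groups did not overlap for 5 of 6 strands, as for 54.9% of all miRNAs tested.

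Of the 6, miR-107 had the largest test statistic, with 4713, 4625 and 4948 TMM-scaled CPM in 0.1% FBS, against 2055, 2394 and 2439 in 9.1% FBS. Every starved library was above every library in 9.1% FBS. It rose by a log2 fold change of 1.05 ± 0.11 (0.81 to 1.29; adjusted p = 2.0e-04, edgeR).

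The strand miR-103a-3p rose less, with 14346, 14671 and 14962 TMM-scaled CPM in 0.1% FBS, against 9304, 10185 and 10055 in 9.1% FBS. The groups did not overlap, and the spread within each was small. Its rise was 0.57 ± 0.09 on the log2 scale (0.37 to 0.77; adjusted p = 0.0012, edgeR); it was 0.17 on library totals alone and -0.069 on the scale of the DROSHA-independent list, so its direction depends on the scale.

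From SREBF2, miR-33a-5p had 692, 576 and 1766 TMM-scaled CPM in 0.1% FBS and 179, 255 and 556 in 9.1% FBS. The lowest starved library was just above the highest library in 9.1% FBS, which was its replicate 3. The log2 fold change was 1.62 ± 0.51 (0.47 to 2.77; adjusted p = 0.029, edgeR), and without starved replicate 3 it was 0.89, which did not pass the test (adjusted p = 0.11).

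Leaving out starved replicate 1, or replicate 1 or 2 in 9.1% FBS, also ended that call, with log2 fold changes of 1.80, 1.27 and 1.45. Its partner miR-33a-3p had 81.7, 101 and 140.1 TMM-scaled CPM in 0.1% FBS, against 43.3, 48.2 and 54.9 in 9.1% FBS, without overlap. Its rise was 1.15 ± 0.22 on the log2 scale (adjusted p = 0.0031, edgeR).

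The 2 strands of the SREBF1 hairpin lay on opposite sides of 0, the 5p strand without passing the test. The strand miR-33b-3p had 84.3, 98.2 and 86.1 TMM-scaled CPM in 0.1% FBS, against 157, 163 and 134 in 9.1% FBS. Every starved library was lower, with a log2 fold change of -0.75 ± 0.14 (-1.07 to -0.44; adjusted p = 0.0028, edgeR), and it was called lower on each of the scales tried.

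Its partner miR-33b-5p had 409.9, 296 and 794 TMM-scaled CPM in 0.1% FBS, against 133, 194 and 419.6 in 9.1% FBS. It was higher under starvation in each number, by 1.63, 0.61 and 0.92 log2 units, but the groups overlapped, with replicate 3 high in both. The log2 fold change was 1.01 ± 0.46 (-0.03 to 2.05; adjusted p = 0.11, edgeR). It passed without replicate 3 of 9.1% FBS, at 1.62 (adjusted p = 0.012, edgeR), and without replicate 3 of both groups, at 1.14. With the replicate block it was 1.03 ± 0.10 and passed (adjusted p = 6.5e-22), a p that leans on a spread pooled over all miRNAs; the block called 367 miRNAs in all, 63.6%.

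Scaling matters for the size of these changes. On the scale of the DROSHA-independent list the median over all miRNAs was -0.67. There 0 of the 6 strands were called higher and miR-33b-3p was the 1 called lower, beside 22 higher and 242 lower of 577 miRNAs. On library totals alone the median was -0.44. There miR-107 (0.65) and miR-33a-3p (0.74) stayed called higher, beside 73 higher and 248 lower of 577 miRNAs. Blood marker miRNAs moved with serum too: their sum was 184 to 209 CPM in 0.1% FBS and 49.3 to 71.1 CPM in 9.1% FBS, with 0 of 5 markers at 0 reads in either group, while epithelial markers summed to 86730 to 92614 CPM in 0.1% FBS and 68174 to 72145 CPM in 9.1% FBS. Their part in the results was not tested, and a change in cells and a change in RNA per cell cannot be told apart in bulk libraries.

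**Figure D3:**
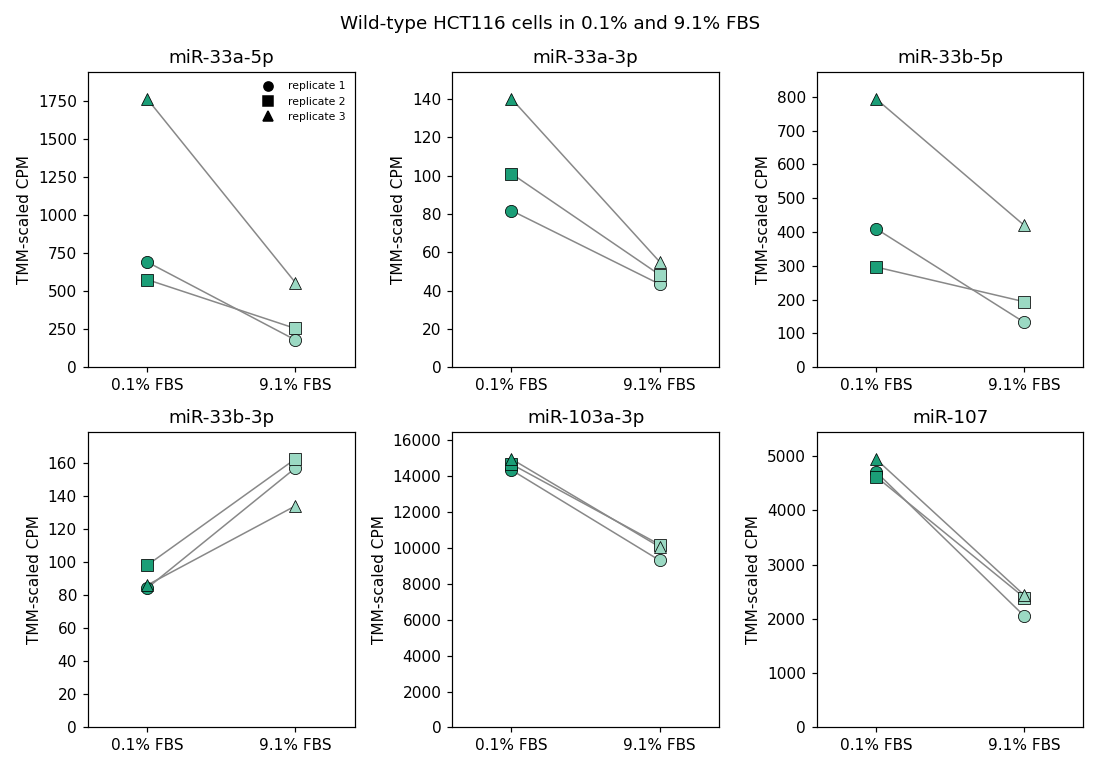
TMM-scaled CPM of each strand in WT HCT116 cells in 0.1% and 9.1% FBS, with lines joining libraries of the same replicate number. For 5 strands each line is higher at 0.1% FBS; for miR-33b-3p each is lower, with 84.3 to 98.2 CPM at 0.1% FBS and 134 to 163 CPM at 9.1% FBS.

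Between the lines, both strands of miR-33b were lower in HEK293E than in HCT116 cells with TMM scaling; on library totals alone miR-33b-3p was still called lower and miR-33b-5p was not. With full-length DROSHA, 3 of the 6 strands were called lower in HEK293E and 0 higher by edgeR's test, where 61.9% of 515 miRNAs were called in either direction and 27.4% lower. With p140 the count was also 3 lower and 0 higher, where 55.3% were called and 27.8% lower. Both counts include miR-33b-3p, which did not pass the filter on low counts in HEK293E alone. Line cannot be told apart from separately made cultures and libraries.

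In CPM of library totals, miR-33b-3p had 37.0, 21.6 and 20.3 in HEK293E p140 libraries, against 58.6, 55.6 and 79.5 in HCT116 p140 libraries, without overlap. It had 44.6, 30.1 and 35.7 in HEK293E full-length libraries, against 79.4, 65.2 and 81.2 in HCT116 full-length libraries, again without overlap. Over all 515 miRNAs tested, with TMM scaling, 57.7% did not overlap between the p140 groups of the lines and 70.5% between the full-length groups. These CPM come from 4 to 5 reads a library in HEK293E p140 and 7 to 12 in HEK293E full-length. The HCT116 libraries had 17 to 26 with p140 and 57 to 63 with full-length DROSHA. The strand did not pass the filter on low counts in HEK293E alone and was tested here with the HCT116 libraries included. Its log2 fold change with TMM scaling was -2.25 ± 0.36 between the p140 groups and -2.03 ± 0.30 between the full-length groups (adjusted p = 7.7e-05 and 3.4e-05, edgeR). On library totals alone it was -1.35 and -1.02 (adjusted p = 0.0055 and 0.0084, edgeR).

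The CPM of miR-33b-5p were 170.3, 48.6 and 48.8 in HEK293E p140 libraries, against 74.9, 140.7 and 336 in HCT116 p140 libraries, and these groups overlapped. They were 134, 73.0 and 89.3 in HEK293E full-length libraries, against 139.98, 152 and 359 in HCT116 full-length libraries, without overlap. Between these full-length groups 70.5% of all miRNAs tested did not overlap in TMM-scaled CPM. With TMM scaling miR-33b-5p differed by -2.03 ± 0.58 between the p140 groups and -2.13 ± 0.53 between the full-length groups (adjusted p = 0.0079 and 0.0029, edgeR). On library totals alone it was at -1.14 and -1.13, and neither passed (adjusted p = 0.10 and 0.071, edgeR). On the list scale the p140 groups did not pass either, at -1.94 (adjusted p = 0.093, edgeR).

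The call for miR-33b-5p with p140 ended without HCT116 p140 replicate 3, at -1.24, and without replicate 3 of all groups, at -0.94. The strand miR-103a-3p was lower in HEK293E by TMM scaling, at -0.63 ± 0.16 for p140 and -0.74 ± 0.16 for the full-length form, yet higher on library totals alone, at 0.28 in both. The median over all miRNAs on library totals was 0.95 for p140 and 1.18 for the full-length form, against 0.03 and 0.16 with TMM scaling. Between lines miR-107 was at 0.02 ± 0.19 for p140 and -0.22 ± 0.19 for the full-length form, not called, but 0.94 and 0.80 on library totals alone, both called. Neither strand of miR-33a was called with TMM scaling, but without HEK293E p140 replicate 1 miR-33a-5p passed between the p140 groups, at -1.94 (adjusted p = 0.017, edgeR).

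Ratios within a library do not depend on the scale between libraries. The ratios of the strands were compared by exact two-sided permutation tests, 25 in all, and 0 had an adjusted p under 0.05. With 3 against 3 libraries the smallest possible p is 0.1, so those tests could not pass and do not decide whether a ratio differs. Tests that used both lines could reach 0.005. In HEK293E cells miR-107 made up 0.16, 0.14 and 0.15 of the level of miR-103a-3p with p140 and 0.16, 0.15 and 0.15 with full-length DROSHA, against 0.094, 0.10 and 0.087 in HCT116 p140 and 0.11, 0.11 and 0.10 in HCT116 full-length libraries.

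All 6 HEK293E libraries were above all 6 rescued HCT116 libraries, a 1.5-fold higher ratio (exact p = 0.005, the smallest 400 arrangements can give; adjusted p = 0.0625). In WT cells the same ratio was 0.33, 0.32 and 0.33 in 0.1% FBS, against 0.22, 0.24 and 0.24 in 9.1% FBS, or 1.4-fold without overlap (exact p = 0.1, the smallest possible with 3 against 3; adjusted p = 0.41). The untreated WT library had 0.23 and KO with GFP 0.25, from 17 and 68 reads. All WT libraries thus lay above the rescued HCT116 libraries, a difference that was not tested.

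The ratio of miR-33b-5p to miR-33a-5p compares products that share a seed. It was 0.34, 0.29 and 0.24 in HCT116 p140, against 0.52, 0.52 and 0.48 in HCT116 full-length libraries. Those groups did not overlap, as for 64.8% of miRNAs taken singly. The ratio differed by a mean of -0.79 log2 units (exact p = 0.1, the smallest possible, adjusted p = 0.41). In HEK293E it was 0.11, 0.18 and 0.13 with p140 and 0.13, 0.11 and 0.22 with full-length DROSHA, which overlap, at -0.10 (exact p = 0.7).

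Over both lines together the difference with p140 was -0.44 (exact p = 0.065 over 400 arrangements within line), which did not pass; without replicate 2 of either HEK293E group it was -0.54, with an unadjusted exact p of 0.035 (p140 left out) or 0.045 (full-length left out). The ratio was lower in HEK293E than in HCT116 cells in every library, at -1.39 log2 units (exact p = 0.005; adjusted p = 0.0625). Starved WT cells had ratios of 0.59, 0.51 and 0.45, against 0.74, 0.76 and 0.75 in 9.1% FBS, without overlap, at -0.54 (exact p = 0.1). Only in the untreated WT library did miR-33b-5p exceed miR-33a-5p, with 171 against 119 reads.

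The strand ratio of the SREBF1 hairpin, miR-33b-5p over miR-33b-3p, was 4.86, 3.02 and 9.22 in 0.1% FBS, against 0.85, 1.19 and 3.13 in 9.1% FBS. It was higher under starvation in each number, 3.50-fold on average, but starved replicate 2 was below replicate 3 of 9.1% FBS (exact p = 0.2; adjusted p = 0.56). With p140 it was 1.28, 2.53 and 4.23 in HCT116, against 1.76, 2.33 and 4.42 with full-length DROSHA, and replicate 3 was the highest with either form.

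The other ratios did not separate the groups. For miR-33a-5p over miR-33a-3p the mean log2 difference was -0.03 in HCT116 and 0.02 in HEK293E with p140, 0.49 in 0.1% FBS and -0.38 between lines. The p140 differences of miR-33b-5p over miR-33b-3p were -0.15 in HCT116 and 0.10 in HEK293E. For miR-33a-5p over miR-103a-3p, which sets the SREBF2 strand against a PANK strand, the differences were 0.31 in HCT116 and -0.39 in HEK293E with p140, and 1.02 in 0.1% FBS. All these groups overlapped, and their exact p-values ran between 0.225 and 1.

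**Figure D4:**
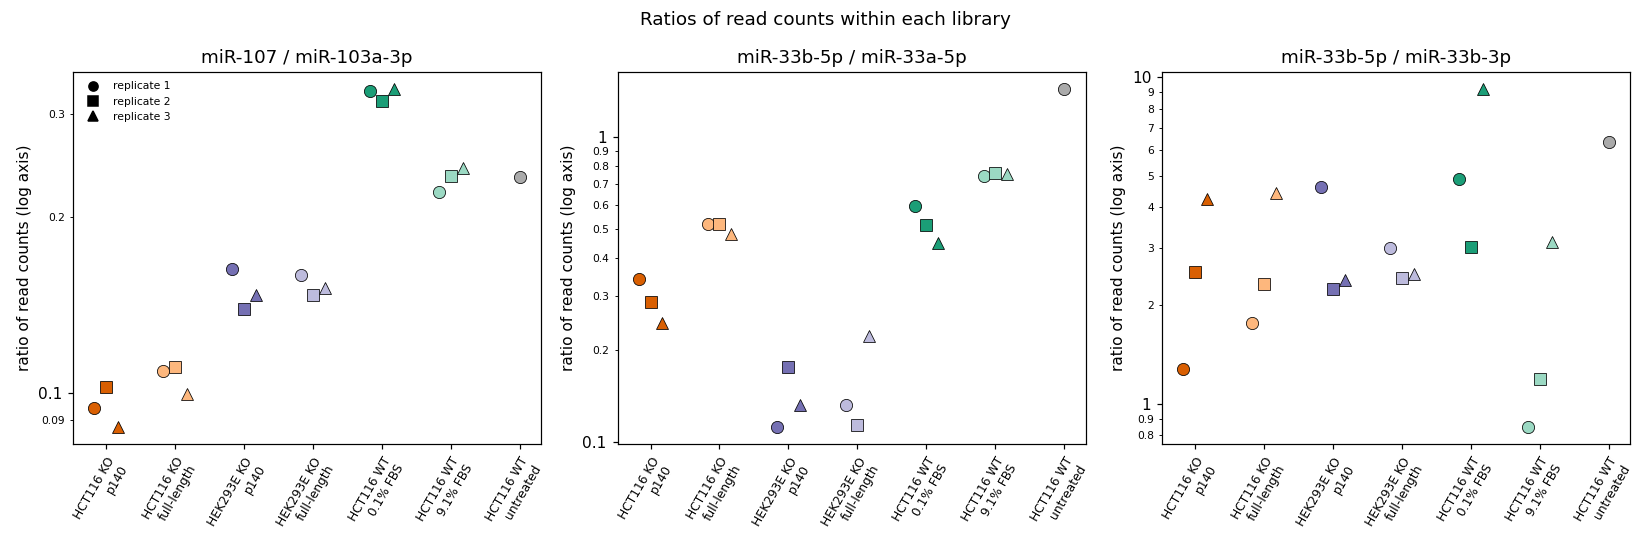
Ratio of read counts within each library on log axes, for miR-107 over miR-103a-3p, miR-33b-5p over miR-33a-5p and miR-33b-5p over miR-33b-3p. Points are libraries and shapes are replicate numbers; the first ratio is lowest in rescued HCT116 cells and highest in 0.1% FBS, and in HCT116 the second is 0.24 to 0.34 with p140 and 0.48 to 0.52 with full-length DROSHA.

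The 5p arm of the PANK2 hairpin, miR-103a-2-5p, had 495 reads over the 20 libraries. The miRNA miR-103b, annotated on the strands opposite to the MIR103A hairpins, had 2 reads. The strand miR-103a-2-5p passed the filter in HCT116 and in the serum experiment, with log2 fold changes of -0.37 ± 0.70 with p140 and 0.18 ± 0.27 in 0.1% FBS, neither called by edgeR.

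The family of miR-15, miR-16 and miR-107, whose members share the bases AGCAGC near the 5′ end and include known regulators of the cell cycle, is set beside the PANK pair. Of 7 tested among the 8 listed, 3 fell and 0 rose with p140 in HCT116, 0 changed in HEK293E by edgeR, and under starvation 2 rose and 2 fell. Of all miRNAs tested, 31.2% fell and 28.5% rose with p140 in HCT116, and 21.2% fell and 5.29% rose in HEK293E, beside the 25.5% higher and 20.3% lower under starvation. With the replicate block 4 of the 7 fell and 1 rose in HCT116, where 37.9% of all miRNAs fell and 35.2% rose. In HCT116 p140 libraries miR-15a-5p had a log2 fold change of -1.91 ± 0.45 and miR-15b-5p of -1.36 ± 0.28 (adjusted p = 0.010 and 0.0069, edgeR), while miR-16-5p was at 0.03 ± 0.15. The medians of the 7 were -0.99 in HCT116, -0.11 in HEK293E and -0.16 under starvation, beside -0.11, -0.04 and -0.03 over all miRNAs tested.

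Of 18 other miRNAs linked to cholesterol and fatty acid genes, 13 were tested in HCT116. With p140, 3 rose and 4 fell in HCT116 (7 rose and 4 fell with the block), and 0 rose and 3 fell of 12 in HEK293E. The share called was 59.6% of all miRNAs in HCT116 (73.1% with the block) and 26.4% in HEK293E. Under starvation 7 rose and 1 fell of 13, where 25.5% of all miRNAs rose and 20.3% fell, with a median of 0.47 against -0.03 over all miRNAs. Among the most abundant, miR-26a-5p had a log2 fold change of 1.31 ± 0.09 in 0.1% FBS, miR-30c-5p, known to repress a lipid transfer protein of lipoprotein assembly, 0.63 ± 0.11 and miR-27a-3p 0.47 ± 0.11 (adjusted p = 4.5e-05, 0.0028 and 0.0070, edgeR). The fourth, miR-106b-5p, did not pass, at 0.23 ± 0.17. Over all miRNAs the starvation calls were 22 higher and 242 lower on the list scale and 73 higher and 248 lower on library totals, so counts by direction depend on the scale.

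The miRNAs nearest to each strand in pattern were found by the root mean square difference (RMS) of centred group means of log2(CPM + 1) over the 6 replicated groups, among 479 miRNAs averaging at least 20 CPM. For miR-107 they were miR-23b-3p (RMS 0.22), miR-191-5p (0.30) and miR-132-3p (0.37), where the median over the pool was 1.4. For miR-103a-3p they were miR-140-5p (0.17), let-7e-5p (0.19) and miR-24-1-5p (0.19). The RMS between miR-103a-3p and miR-107 was 0.61, below the pool medians of 1.23 for miR-103a-3p and 1.4 for miR-107. The miRNAs named were nearer to each than its paralog, but they were picked as the nearest of the pool. How many others were nearer than the paralog was not counted. These CPM are of library totals, not corrected for composition.

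For miR-33a-5p they were miR-146b-5p (0.16), miR-26a-5p (0.28) and miR-194-5p (0.29), and for its partner miR-33a-3p, which was itself at 0.23 from it, miR-30c-5p (0.17), miR-324-3p (0.18) and miR-324-5p (0.20). For miR-33b-5p they were let-7b-3p (0.22), miR-125b-5p (0.24) and let-7f-5p (0.32), and for miR-33b-3p miR-24-3p (0.35), let-7f-5p (0.43) and miR-660-3p (0.46). The 5p and 3p strands of miR-33b were 0.53 apart, and miR-33a-5p and miR-33b-5p 0.92 apart. These are descriptions over 6 groups that share their libraries and depth.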

How the data were processed

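Small RNA libraries of 20 samples were analysed, grouped and numbered by their titles. Total RNA with added spike-in RNAs was size-selected and ligated to randomized adaptors before MiSeq sequencing, per the labels' protocols. The submitters' processing notes name cutadapt, STAR, bedtools and hg38, without versions. How reads that map to several places and the random adaptor bases were treated is not stated. The authors deposited raw read counts for each mature miRNA, with no normalization. Each file held 2813 values for 2588 mature miRNAs and no spike-in. Where a miRNA had several copies, the one with the highest total was kept.

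The main test was the quasi-likelihood F test of edgeR (4.0.16, R 4.3.3) with TMM scaling, filterByExpr at a minimum count of 10 and Benjamini-Hochberg adjustment over all miRNAs tested, two-sided at 0.05. Fits covered the 2 groups compared, or the 12 rescue libraries for the interaction and the differences between lines. DESeq2 1.42.0 was an alternative. Ratios had 0.5 read added to each count and were tested by exact permutation with scipy 1.17.1. Counting intervals are exact at 95%, and floors are 3 reads. The scripts were tested on simulated data.

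Same-numbered libraries deviated together within each comparison, with correlations of 0.32 to 0.64 in HCT116, 0.29 to 0.46 in HEK293E and 0.15 to 0.67 in the serum experiment. Between lines they did not (-0.13 to 0.060 with p140, -0.20 to 0.078 with full-length DROSHA). Different-numbered libraries had -0.50 to 0.32, -0.38 to 0.12 and -0.56 to 0.48 in the same 3 comparisons, so that replicates 1 and 2 correlated across numbers about as much in HCT116 and, in the serum experiment, more than replicate 2 did with its own number. The numbers were taken to pair libraries within experiments because every same-numbered correlation was over 0.1; what they share is not labelled. All 6 strands are named in each comparison, and from each context list at most 4 by mean CPM. The strands, lists and rules were chosen with earlier results of these data known.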

Additional observations from a re-analysis of the deposited data

How the results depend on the processing

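The 35 log2 fold changes of the 6 strands were recomputed 633 times in all (DESeq2, its size factors, no count filter, summed copies, the DROSHA-independent list, library totals alone, the replicate block, a joint fit of 18 libraries, and leaving out libraries). Of these values 547 kept their direction and their side of the threshold, 18 lost a call, 8 gained one and 60 turned sign, 55 of them with no call in either fit. Of 285 recomputed log2 ratios 243 kept both, 39 turned sign and 3 passed an unadjusted 0.05. Library totals alone, and the block shared over the lines, were chosen after seeing the data. The planned block within line for the differences between lines was not run, because it leaves no test of line. For every change below the cause was not tested. Depth limits miR-33b-3p in HEK293E, at 4 to 12 reads a library, and the SREBF strands in KO with GFP.

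Calls over all miRNAs numbered 170 (0 higher) for p140 in HCT116 on the list scale, beside 266 (127 higher). In HEK293E they numbered 216 (4 higher) on the list scale, 183 with the block, and 47 to 129 leaving out libraries, the lowest without replicate 3, beside 110. For starvation the list scale gave 22 higher and 242 lower, and library totals 73 and 248, beside 147 and 117. The interaction gave 11 with DESeq2's size factors, 0 on the list scale, 102 with the block and 5 to 85 leaving out libraries (5 without HEK293E p140 replicate 2, 85 without HCT116 p140 replicate 3), beside 17. The block changed no call of a strand except that of miR-33b-5p under starvation (1.03), and turned miR-33a-5p to -0.073 for p140 in HEK293E.

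On the list scale the p140 values turned to -0.76 (miR-33a-5p), -0.74 (miR-33a-3p) and -1.55 (miR-103a-3p) in HCT116, and to -0.55 (miR-33a-5p), -0.51 (miR-103a-3p, called) and -0.54 (miR-107) in HEK293E. Under starvation miR-103a-3p turned to -0.069, and miR-33a-5p (1.01), miR-33a-3p (0.53) and miR-107 (0.41) lost their calls. On that scale the interaction turned to 0.23 for miR-33a-5p and 0.75 for miR-33b-3p. Between lines, miR-33a-3p turned to -0.52 with full-length DROSHA, and miR-33b-5p (-1.94) and miR-103a-3p (-0.23) lost their calls with p140.

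On library totals alone the starvation values of miR-33a-5p (1.205) and miR-103a-3p (0.17) lost their calls, as in the joint fit (1.39 and 0.39). The interaction was -0.0091 for miR-33b-5p and -0.0015 for miR-103a-3p. Between the p140 groups of the lines, library totals gave 0.036 (miR-33a-5p), 0.21 (miR-33a-3p), -1.14 (miR-33b-5p, not called), 0.28 (miR-103a-3p) and 0.94 (miR-107, called). Between the full-length groups they gave 0.65 (miR-33a-5p), 1.095 (miR-33a-3p, called), -1.13 (miR-33b-5p, not called), 0.28 (miR-103a-3p) and 0.80 (miR-107, called).

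With no count filter miR-103a-3p turned to -0.27 for p140 in HCT116, the interaction of miR-33b-3p was 0.029, and miR-33b-5p was called under starvation (1.03). Between the p140 groups of the lines, miR-33a-5p was then called (-0.74) and miR-103a-3p was not (-0.45). Summed copies turned miR-107 to -0.043 there. Adding 0.1 read moved the p140 log2 ratio difference over both lines to 0.0068 for miR-33a-5p over miR-33a-3p and to 0.00015 for miR-33b-5p over miR-33b-3p.

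Leaving out libraries, p140 values in HCT116 ran between -0.45 and 1.04 (miR-33a-5p), -0.28 and 0.85 (miR-33a-3p), -1.15 and 0.096 (miR-33b-5p), and -0.11 and 0.066 (miR-103a-3p). In HEK293E they ran between -0.91 and 0.52 (miR-33a-5p), -0.54 and 0.16 (miR-33a-3p), -0.84 and 0.17 (miR-33b-5p), and -0.036 and 0.28 (miR-107). Starvation values ran between 0.89 and 2.22 (miR-33a-5p) and 0.46 and 1.62 (miR-33b-5p). The interaction ran between -1.58 and 0.45 (miR-33a-5p), -1.22 and 0.064 (miR-33a-3p), -0.63 and 0.84 (miR-33b-5p), and -0.44 and 0.14 (miR-33b-3p). Between the p140 groups of the lines the ranges were -1.94 to 0.43 (miR-33a-5p), -1.15 to 0.41 (miR-33a-3p), -2.76 to -0.94 (miR-33b-5p) and -0.054 to 0.17 (miR-107), and between the full-length groups -0.84 to 0.49 (miR-33a-5p) and -0.081 to 0.34 (miR-33a-3p).

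Leaving out libraries, the log2 ratio differences for p140 ran as follows in HCT116, HEK293E and both lines. For miR-33a-5p over miR-33a-3p they were -0.18 to 0.26, -0.31 to 0.37 and -0.17 to 0.17. For miR-33b-5p over miR-33b-3p they were -0.56 to 0.30, -0.22 to 0.29 and -0.23 to 0.20. For miR-33a-5p over miR-103a-3p they were -0.37 to 0.95, -1.22 to 0.13 and -0.46 to 0.28. For miR-33b-5p over miR-33a-5p they were -0.29 to 0.19 in HEK293E and -0.54 to -0.30 in both lines, and for miR-107 over miR-103a-3p -0.089 to 0.024 and -0.13 to -0.071. Between lines they were -0.14 to 0.29 for miR-33b-5p over miR-33b-3p and -0.31 to 0.45 for miR-33a-5p over miR-103a-3p.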
